A study of Homo sapiens with 4 samples.

Results

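In LNCaP cells, long stretches of the genome carried open regions that were absent, one after another, from both libraries of the enzalutamide-resistant cells. The data contained 333 such stretches with 3445 regions in all, out of 150917 merged regions on the main chromosomes. The regions were chosen by the presence and absence of summits, so the difference between the cell types within them is given by the selection and was not tested. Each summit, the base of strongest signal in an accessible region, was widened by 250 bp per side, and overlapping windows were merged. A region was kept when both libraries of at least 1 cell type had a summit in it, which left 95330 regions. LNCaP-only regions were called by the 2 LNCaP libraries and carried no summit of a resistant library. A run of 8 or more of these without another kept region between them was called a stretch. Of the kept regions, 41503 were LNCaP-only (43.5%), 31833 were shared by all 4 libraries and 5793 were found in both resistant libraries alone. The stretches held 8.30% of the LNCaP-only regions.

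The samples were 2 libraries of LNCaP, an established androgen-sensitive prostate cancer line labelled WT, and 2 libraries of its derivative LNCaP-resistance, labelled as treated with enzalutamide. Per the labels both grew in RPMI-1640 with 10% fetal bovine serum, and the labels do not say which resistant subline was profiled. Per the study's methods, the resistant sublines were first adapted to charcoal-stripped serum, which is depleted of steroid hormones, and then selected by rising enzalutamide doses. Androgen deprivation, drug and selection of 1 parental line thus cannot be told apart. The labels number the libraries 1 and 2 but do not say that they came from separate cultures, so the spread between them may be technical. The deposited lists held 117245 and 107344 summits for LNCaP and 70866 and 45618 for the resistant cells. Read depth is unknown, and shorter resistant lists leave more LNCaP regions without a resistant partner. A two-sided exact permutation test of 2 libraries against 2 cannot give a p below 0.333, and no test was made. All libraries carried summits at the prostate genes KLK2, KLK3 and KLK4 and at the lineage factors FOXA1 and HOXB13, so defining genes of the labelled tissue were open in both groups.

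ATAC-seq marks DNA that is open to a transposase. Open regions far from gene starts are often enhancers, which act on genes at a distance and tend to lie in groups around genes that define a cell type. In prostate cells many of them are bound by steroid receptors together with forkhead factors. Enzalutamide is an antiandrogen drug, and long-term exposure can select cells with another chromatin landscape.

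Few members lay at gene starts. RefSeq promoters (GRCh38.p14, 250 bases before to 50 after a start) were listed for 295 of the 387 protein-coding genes overlapping a stretch. Among the listed promoters, the stretches covered 190 of 156 protein-coding genes, and a member region touched 18 of these, belonging to 15 genes. A whole chromosome with many stretches had no listed promoter and is named with the processing. Promoter counts and motif shares leave it out. None of the 190 touched a shared region, which follows from the rule, since a shared region ends a stretch. The 250 bases before the start are shown for 7 of the 18, chosen to span CpG-rich and CpG-poor starts and to include the gene with the most members. Marked motifs are more common among these 7 than among the 18. Capitals mark AGAACA, a half-site of steroid receptors, or its reverse complement TGTTCT, and the forkhead motif TGTTTAC or its reverse complement GTAAACA.
CFAP107 (chr1:12745950-12746199, plus strand): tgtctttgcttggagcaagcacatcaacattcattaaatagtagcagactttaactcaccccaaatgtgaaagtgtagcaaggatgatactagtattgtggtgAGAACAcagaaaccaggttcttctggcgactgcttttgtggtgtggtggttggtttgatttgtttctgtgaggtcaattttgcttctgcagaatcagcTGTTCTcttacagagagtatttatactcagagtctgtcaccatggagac
PTPRM (chr18:7946625-7946874, plus strand): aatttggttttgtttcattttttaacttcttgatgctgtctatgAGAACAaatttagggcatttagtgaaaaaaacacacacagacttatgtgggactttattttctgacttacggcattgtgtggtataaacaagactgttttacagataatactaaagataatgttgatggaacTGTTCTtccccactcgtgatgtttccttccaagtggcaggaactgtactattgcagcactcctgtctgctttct
TSHZ2 (chr20:52972108-52972357, plus strand): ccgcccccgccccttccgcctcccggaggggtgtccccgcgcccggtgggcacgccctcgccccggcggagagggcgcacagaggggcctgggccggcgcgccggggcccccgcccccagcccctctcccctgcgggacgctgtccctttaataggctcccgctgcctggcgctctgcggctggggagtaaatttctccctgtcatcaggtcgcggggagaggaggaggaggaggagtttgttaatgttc
MGAT5 (chr2:134253822-134254071, plus strand): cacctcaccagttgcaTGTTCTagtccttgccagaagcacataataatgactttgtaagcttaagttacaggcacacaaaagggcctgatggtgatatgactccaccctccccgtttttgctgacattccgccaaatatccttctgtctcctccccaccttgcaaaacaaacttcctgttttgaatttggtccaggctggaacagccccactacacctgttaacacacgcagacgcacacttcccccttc
KRTAP3-1 (chr17:41009129-41009378, minus strand): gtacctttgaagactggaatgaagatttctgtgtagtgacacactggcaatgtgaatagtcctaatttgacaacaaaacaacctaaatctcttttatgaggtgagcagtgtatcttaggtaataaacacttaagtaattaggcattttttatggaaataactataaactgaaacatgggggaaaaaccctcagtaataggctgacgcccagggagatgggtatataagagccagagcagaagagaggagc
KAZN (chr1:14929490-14929739, plus strand): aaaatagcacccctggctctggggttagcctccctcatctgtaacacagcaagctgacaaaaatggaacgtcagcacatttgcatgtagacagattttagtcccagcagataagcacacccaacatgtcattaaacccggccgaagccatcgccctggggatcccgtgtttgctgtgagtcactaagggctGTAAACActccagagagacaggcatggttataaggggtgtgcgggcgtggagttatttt
KCNMA1 (chr10:77637809-77638058, minus strand): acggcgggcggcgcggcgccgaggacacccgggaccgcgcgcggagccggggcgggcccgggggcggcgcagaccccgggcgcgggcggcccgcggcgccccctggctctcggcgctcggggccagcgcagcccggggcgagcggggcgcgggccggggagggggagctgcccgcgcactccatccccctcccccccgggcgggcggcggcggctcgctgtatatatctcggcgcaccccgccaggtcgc

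CFAP107, a gene for a ciliary protein, had the promoter with the strongest of these regions. Its 2 LNCaP scores were 36.9 and 40.4, which placed it at percentiles 88.6 and 94.2, and the printed bases held 2 half-site matches. The start shown for PTPRM lies inside the gene and also held 2 half-site matches in 36.4% GC. Its region scored 26.4 and 27.0 in the LNCaP libraries. The starts of TSHZ2 and KCNMA1 were of the other kind. They held 24 and 46 CpG dinucleotides in the printed bases, against 1 for CFAP107. The KCNMA1 region was weak, at percentiles 30.4 and 8.74. Among the 18 promoters touched by a member, 4 held the half-site and 1 held the forkhead motif, the internal KAZN start.

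The promoters within stretches differed in composition from protein-coding promoters at large. Their median GC content was 45.2% against 62.3% over all 22199 protein-coding promoters in the table. Their median number of CpG dinucleotides was 3 against 21. On both strands of the 300 bases, the half-site AGAACA occurred in 18.4% of the 190 promoters and in 11.7% of all. The forkhead motif TGTTTAC occurred in 5.26% and 2.85%, and the AP-1 motif TGANTCA in 15.8% and 6.15%. The ETS motif CCGGAAG occurred in 1.58% and 12.8%. Of the 22199 promoters, 10661 touched a shared region, which the rule keeps out of stretches. Those 10661 had a median GC content of 66% and a median of 27 CpG dinucleotides. The half-site occurred in 7.63% of them, the forkhead motif in 2.36%, the AP-1 motif in 3.68% and the ETS motif in 21.2%. The part of the rule in the differences from all promoters was not tested. The 437 promoters touched by LNCaP-only regions outside stretches had a median GC content of 56.3%. Of these, 13.3% held the half-site, 5.95% the forkhead motif, 8.01% the AP-1 motif and 7.32% the ETS motif. All 437 were touched by a region, while only 18 of the 190 were touched by a member, so the sets are unlike. Base composition also differed between the sets, and its part in these shares was not tested. The genes overlapping stretches included clusters of related genes, with 63 keratin and keratin-associated genes and 22 PRAMEF genes. Promoters of related genes are not independent, and the part of such clusters in these shares was not tested. Half-site and forkhead matches can share a base, since the letters of 1 can end where the other begins. The 18 promoters touched by a member had a median GC content of 50.8%. Of them, 4 held the half-site, 1 the forkhead motif, 3 the AP-1 motif and 1 the ETS motif, too few for a comparison.

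The stretches also covered 23 of 1560 microRNA hairpins with a RefSeq entry (1.47%), and 14 of the 23 lay inside a protein-coding gene. The 32 mature microRNAs of the 23 hairpins had 32 different seeds, so no pair of them shared a seed. The mature sequences are shown for the 2 hairpins that a member region overlapped, MIR3137 and MIR7157, and for those inside SEMA5A and SLIT3, with the seed (bases 2 to 8) in capitals.
hsa-miR-3137: uCUGUAGCcugggagcaauggggu
hsa-miR-4636: aACUCGUGuucaaagccuuuag
hsa-miR-585-3p: uGGGCGUAucuguaugcua
hsa-miR-585-5p: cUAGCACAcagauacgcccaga
hsa-miR-7157-3p: uCUGUGCUacuggaugaagagu
hsa-miR-7157-5p: uCAGCAUUcauuggcaccagaga

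MIR7157 lies in LRP1B, a gene for a large lipoprotein receptor, and MIR3137 in XXYLT1, a xylosyltransferase gene. MIR4636 lay 1105 bases from the nearest member region in SEMA5A, and MIR585 lay 2.17 kb from the nearest in SLIT3. Summit lists do not measure microRNA levels.

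Together the 333 stretches spanned 101.926 Mb. A stretch had a median of 9 regions, with a range of 8 to 28, and a median length of 251.8 kb. The shortest was 39.4 kb and the longest 1926 kb. Neighbouring members lay a median of 18.8 kb apart, against 14.3 kb between neighbouring kept regions genome-wide. Longer runs were fewer. There were 105 stretches of 8 regions, 72 of 9 and 50 of 10, and 1 each of 20, 21, 23 and 28. Just below the threshold stood 203 runs of 7 regions with a median length of 147.1 kb. Their regions had median percentiles of 53.6 in LNCaP replicate 1 and 48.1 in LNCaP replicate 2, against 53.6 and 47.8 for the runs of 8. The percentiles were close on both sides of the threshold, while runs of 8 were longer, with a median of 207.6 kb.

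**Figure D1:**
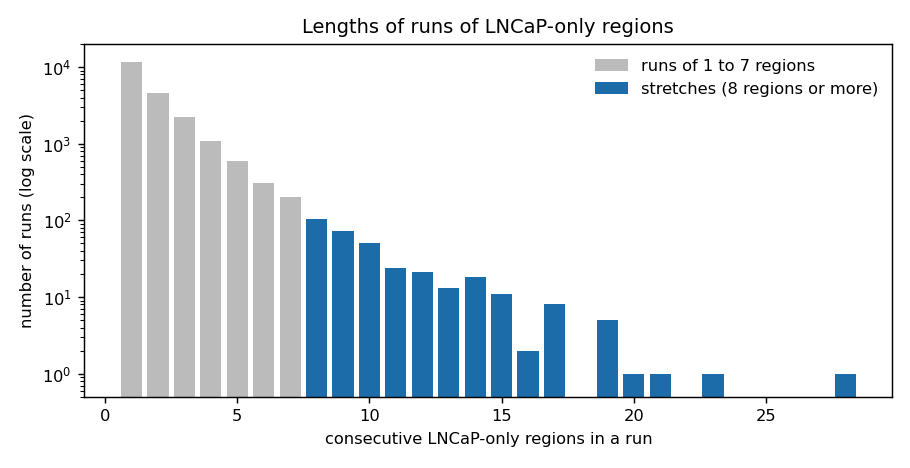
Number of runs (log scale) against the number of consecutive LNCaP-only regions in a run, with runs of 1 to 7 regions in grey and the 333 stretches of 8 or more in blue. Counts fell from 11544 single regions to 203 runs of 7 and 105 runs of 8, with no break at the threshold.

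Runs of this length were rare in the other classes. Shared regions formed 54 runs of 8 or more, the longest of 21, which held 1.65% of them. The resistant-only regions formed none, and their longest run was 5. They were also fewer, 5793 against 41503, and a rarer class forms shorter runs. When each library was reduced to its 45618 highest-scoring summits, the number in the shortest list, 33 LNCaP-only stretches remained and the resistant-only regions formed 5. The classes then counted 13193 and 11445 regions. Of the 33 stretches, 26 overlapped at least 1 of the 333, and 5.86% of the 3445 members were still in a stretch. This setting changed list length and the lowest score kept together, and their parts were not told apart. Results below say for most of the named loci what was left among equal lists. The 5 resistant-only runs included 1 of 17 regions overlapping FOXP2 and MDFIC on chromosome 7 and 1 of 8 at KLF5, a factor of epithelial cells, on chromosome 13.

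Within the spans, the library lists differed as follows. LNCaP replicate 1 had 4557 summits and LNCaP replicate 2 had 4174, which was 3.89% of each list. Resistant replicate 1 had 276 (0.390%) and resistant replicate 2 had 52 (0.114%). Per Mb this was 44.7 and 41.0 against 2.71 and 0.510. The rule allowed resistant summits in a span only in regions that were not kept, that is not found in both libraries of either cell type. In 147 stretches (44.1%) no resistant library had any summit, and in another 158 only 1 of them did. Resistant summits that did occur stood at median percentiles of 16.8 (276 summits, highest 69.0) and 9.58 (52 summits, highest 45.4) of their own lists. The rule admitted only summits without a match in the other resistant library, and its part in these low ranks was not tested. The regions found in a single LNCaP library but in no resistant library numbered 1562 in the spans.

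The stretches ended at several kinds of region. Of the 666 flanking positions, 357 (53.6%) were shared regions, 243 (36.5%) were kept regions with a summit in part of the libraries of 1 cell type, and 66 (9.91%) were resistant-only. In 22 pairs of stretches a single region lay between the 2 members of the pair. Joining across it gave 37 regions at SEMA5A, with 1 shared region between, and 33 beyond MKI67 on chromosome 10.

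The members were of middling strength. A percentile here is the rank of a summit's score in its own library, with the strongest at 100. The median percentile of a member was 53.6 in LNCaP replicate 1 and 49.3 in LNCaP replicate 2, and 15.7% of members were at or above percentile 75 in both. The same share was 11.9% for LNCaP-only regions outside stretches and 47.5% for shared regions. Across the 3445 members the percentiles of the LNCaP libraries correlated with Pearson's r of 0.75 and Spearman's rho of 0.75. This is across regions, which are not independent replicates. LNCaP-only status itself depended on strength. Below a mean percentile of 10, 78.3% of the regions that the 2 LNCaP lists shared were LNCaP-only, and above 90 it was 15.4%. Among LNCaP-only regions, the share within stretches went the other way, from 5.11% below percentile 10 to 12.0% above 90. At least 1 member at or above percentile 75 in both occurred in 254 stretches, and 79 had none.

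The strongest member lay on chromosome 18, at chr18:13127073-13127601, 2.04 kb from CEP192, a centrosome gene. Its scores were 86.9 and 77.2, both above percentile 99.8 of their libraries. The next 3 lay within GRK3, a receptor kinase gene, with 83.5 and 73.3, within TMEM178B with 81.8 and 70.5, and within ADAMTS12, a secreted protease gene, with 79.8 and 63.4. The 10 strongest members stood at or above percentile 97.8 in both LNCaP libraries while neither resistant list had a summit there.

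Members lay far from the ends of protein-coding genes. Only 3.13% were within 3 kb of an end of a protein-coding gene, against 10.4% of LNCaP-only regions outside stretches and 39.6% of shared regions. The median distance to such an end was 115.5 kb, against 32.5 kb and 8.95 kb. More than 100 kb separated 53.6% of members from any protein-coding gene end, against 23.6% and 12.3%. Still, 49.7% of members lay within a protein-coding gene and 64.3% within a gene of any kind. By the rule a shared region ends a stretch, and its part in these distances was not tested.

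The stretch with the most regions held 28 over 1038 kb at chr5:8501171-9539043. It covered 98.6% of SEMA5A, a transmembrane semaphorin that guides axons and cell migration, and sequence beside it without another protein-coding gene. The LNCaP libraries had 42 and 37 summits there and the resistant libraries 1 each. Inside SEMA5A, 13 of the 14 regions common to the LNCaP libraries were members. The strongest, at chr5:9523348-9523997, scored 33.8 in each LNCaP library. Among equal lists, 9 regions of this stretch remained in a run.

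The next 3 stretches overlapped no protein-coding gene. The second held 23 regions at chr10:128267922-128973266, 141 kb beyond MKI67, the gene of the proliferation marker Ki-67, and 494 kb short of MGMT, a DNA repair gene. LNCaP summits there numbered 32 and 28, and resistant summits 2 and 0. A stretch of 21 regions at chr2:128786667-129857700 had 33 and 28 LNCaP summits and 2 and 0 resistant summits. One of 20 regions at chr5:2183294-2733241 ended 2.39 kb from IRX2, a homeobox factor gene, with 36 and 27 against 1 and 0. In these stretches, 6, 9 and 11 members were left in a run among equal lists. The resistant lists were nearly empty across all 3.

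A stretch of 19 regions at chr20:21705610-22296465 began at PAX1, a developmental transcription factor gene, between NKX2-2, 183 kb to the left, and FOXA2, 285 kb to the right. FOXA2 is a forkhead factor known in neuroendocrine prostate tumours. The libraries had 22 and 22 LNCaP summits there against 1 and 0. The member at PAX1 itself scored 13.9 and 11.8. Among equal lists 9 members of this stretch remained, in a run of 12 regions that also overlapped the next stretch. At chr2:216829468-217420029, 19 regions around TNP1, a sperm chromatin gene, had 33 and 20 LNCaP summits and none in either resistant list. IGFBP5, an insulin-like growth factor binding protein gene, lay 134 kb to the left. A run of 10 remained among equal lists.

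Of the other 4, 19 regions at chr4:23904058-24396415 lay in PPARGC1A, the gene of the metabolic coactivator PGC-1alpha. LNCaP summits there numbered 25 and 24, against 1 and 0. Another 19 lay in PDE10A, a cyclic nucleotide phosphodiesterase gene, at chr6:165480907-165821064, with 23 and 24 against 2 and 0. A further 19 lay at chr8:141587239-141942569 with 32 and 22 against 5 and 0, the most resistant summits of the 10. The last, beyond GOT2 at chr16:58829124-59467575, had 20 and 21 against 1 and 0. It was 1 of 8 stretches with 17 regions and was taken as the longest of them. None of the members of these 4 stayed in a run of 8 among equal lists.

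**Figure D2:**
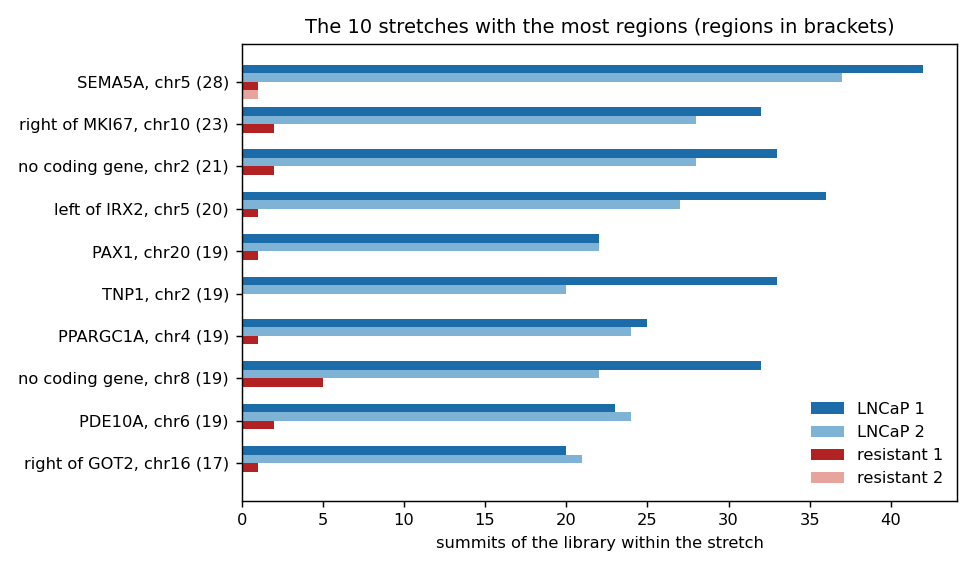
Summits of each of the 4 libraries (horizontal axis) within the 10 stretches with the most regions (of 8 tied at 17, the longest), named by the gene they overlap or lie beside, with the number of regions in brackets. LNCaP libraries had 20 to 42 summits a stretch, resistant replicate 1 had 0 to 5 and resistant replicate 2 had 0 or 1.

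The protein-coding genes overlapping a stretch numbered 387 of 20037 (1.93%). Of these, 256 had at least 1 member inside and 124 had 8 or more. The stretches themselves were often free of them. No protein-coding gene overlapped 103 stretches (30.9%), 1 overlapped 178, and 52 had more. These genes were long, with a median of 108.8 kb against 24.1 kb for all protein-coding genes. Genes over 500 kb overlapped a stretch in 64 of 315 cases (20.3%), and genes of 10 to 50 kb in 46 of 8074 (0.570%). A long gene offers more room for a run, and the part of length in this share was not tested. Genes of at most 10 kb reached 2.13%, and clusters of short genes lay whole within some stretches. Of the long noncoding RNA genes, 3.76% overlapped a stretch, and of the 443 transfer RNA genes none did.

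**Figure D3:**
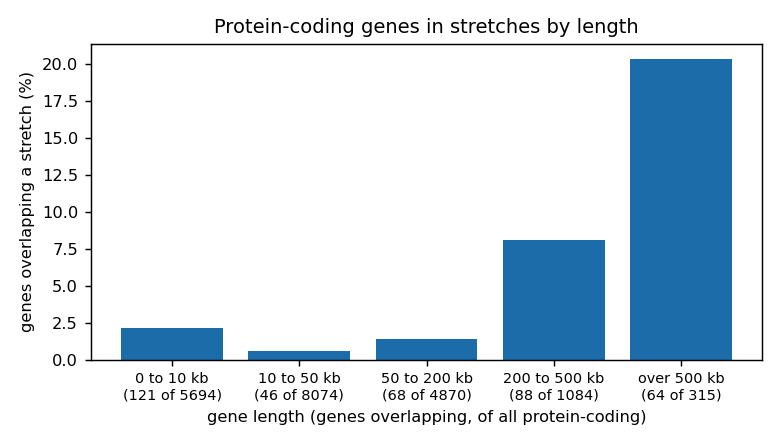
Share of protein-coding genes that overlap a stretch (vertical axis, percent) by gene length in kb (horizontal axis), with the counts under each bar. The share was 20.3% above 500 kb and 0.570% between 10 and 50 kb.

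PTPRM, the gene of a receptor phosphatase that joins neighbouring cells, held the most members. It carried 32 in 3 stretches on chromosome 18, the only gene in 3. They lay at chr18:7616647-7828982, chr18:7946634-8265252 and chr18:8333855-8461850. Of the 39 regions within PTPRM that the LNCaP libraries had in common, 35 were LNCaP-only and 1 was shared. Summits in the gene numbered 54 and 41 in LNCaP and 5 and 0 in the resistant libraries. Members ranged from mean percentile 4.72 to 98.7, and the strongest, at chr18:8162718-8163223, scored 78.8 and 52.8. Among equal lists this locus had the longest run of all, with 19 regions.

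RORA, the gene of an orphan nuclear receptor, held 29 members in 2 stretches on chromosome 15. It had 47 and 41 LNCaP summits and 10 and 7 resistant summits. A further stretch of 17 regions, at chr15:61274105-61743068, lay just beyond the gene and had no resistant summit. KAZN, a gene for a protein of cell junctions, held 26 members with 58 and 59 LNCaP summits against 14 and 5. Its first stretch, chr1:14009579-14550413, was among the strongest, with median percentiles of 81.5 and 73.6 over 17 regions and no resistant summit. Runs of 12 regions in RORA and 14 in KAZN remained among equal lists.

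SLIT3, a secreted ligand of Robo receptors, also held 26 members, with 40 and 44 LNCaP summits against 8 and 4. Its second stretch, at chr5:168989705-169266368, held 17 regions and no resistant summit. DAB1, an adaptor of reelin signalling, held 23 members, with 62 and 58 summits against 10 and 5. Among equal lists a run of 10 regions remained in SLIT3, and neither DAB1 stretch kept a member in a run. In each of these 5 genes both LNCaP counts were above both resistant counts, which the choice by members had fixed.

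Among the 29 androgen-regulated genes that matched, 1 overlapped a stretch (3.45%). This was IGF1R, the receptor of insulin-like growth factor 1, with 18 members in 2 stretches, chr15:98684375-98760900 and chr15:98868499-98954889. IGF1R had 43 and 39 LNCaP summits and 11 and 6 resistant summits, none of the latter within the stretches. Its strongest member scored 38.4 and 29.1. Neither of the IGF1R stretches kept a member in a run among equal lists. None of the 16 luminal and lineage transcription factor genes and none of the 20 neuroendocrine genes overlapped a stretch. The same held for 18 classical cadherin genes and 20 genes of SWI/SNF subunits, the complex that moves nucleosomes. At 1.93% of all genes, lists of this size would hold few stretch genes in any case.

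The neuronal lists held a few. Of 27 synaptic and neuronal adhesion genes, TENM4 and NTM overlapped a stretch (7.41%). TENM4, a teneurin that links neurons, had 13 members, with 39 and 36 LNCaP summits against 14 and 3. NTM, a neurotrimin adhesion gene, had 8, with 52 and 49 against 14 and 6. Genes of glutamate and GABA receptors were also found. GABRG3, a GABA-A receptor subunit gene, had 11 members, with 23 and 24 LNCaP summits against 6 and 1. GRIN2B, an NMDA receptor subunit gene, had 3, with 13 and 16 against 6 and 2. TENM4, NTM and GABRG3 span 788, 966 and 571 kb, and long genes overlapped stretches more often. Among equal lists a run of 9 regions remained in TENM4, and the NTM, GABRG3 and GRIN2B stretches kept no member in a run.

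The loci at the centre of the study lay apart from the stretches. Kept regions were counted within each gene and 3 kb beside it. TMPRSS2, an androgen-regulated protease gene, was 1.75 Mb from the nearest stretch, and 4 of its 8 kept regions were LNCaP-only. ENO2 and SYP, markers of neuroendocrine cells, lay 1.62 and 9.52 Mb away. PROX1, a homeobox factor gene, lay 5.86 Mb away, and SMARCA4, the gene of a SWI/SNF ATPase, 17.0 Mb away. SYP and ENO2 had no LNCaP-only region. SYP had 2 shared and 1 resistant-only region of 4, and all 3 of ENO2 were shared. Of the 2 kept regions of PROX1 1 was LNCaP-only and 1 was shared, and SMARCA4 had 3 LNCaP-only, 4 shared and 1 resistant-only region of 8. Over all kept regions 43.5% were LNCaP-only, and the counts at these genes are too small to set against that share.

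Clusters of related short genes were also found, named here after their values were seen. Genes whose symbol begins with KRT, the keratins and keratin-associated proteins, overlapped in 63 of 152 cases (41.4%), but these came from 4 stretches. At chr17:40993852-41324565, a stretch of 8 regions spanned 34 keratin-associated protein genes, with 15 and 8 LNCaP summits and none in the resistant lists. Members lay inside 2 of these genes, KRTAP3-3 and KRTAP16-1. Next to this stretch, chr17:41417433-41539732 held 9 regions and spanned 8 keratin genes, with 11 and 10 summits against 0 and 2. Members lay inside KRT32 and KRT37. KRT15 and KRT19, of basal and simple epithelia, had no LNCaP summit, and KRT19 had 1 in resistant replicate 2. A single shared region separated these 2 stretches. At chr21:30436702-30649322, 8 regions lay between 17 keratin-associated genes and inside none of them, with 8 and 10 summits against none. The fourth spanned 4 such genes at chr11:71454637-71569169. None of these 4 stretches kept a member in a run among equal lists.

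At chr1:12708286-13605510, a stretch of 14 regions spanned 22 PRAMEF genes, a family related to a tumour antigen, with 17 and 17 LNCaP summits against 2 and 0. No member lay inside a PRAMEF gene, and among equal lists the stretch kept no member in a run. A stretch of 9 regions at chr19:54627889-55002755 spanned 7 genes of killer cell receptors (KIR), with 13 and 12 against 2 and 3. How well reads can be placed in such arrays of related genes was not analysed. Genes without a summit there thus cannot be called closed.

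The other families listed by symbol stand beside a share of 1.93% over all protein-coding genes. Among solute carrier genes 7 of 398 overlapped (1.76%), and among potassium channel genes 2 of 96 (2.08%), KCNMA1 and KCNU1. Among ADAM and ADAMTS genes 1 of 39 overlapped (2.56%), and among collagen genes 1 of 44 (2.27%). These shares were near that of all genes. Among zinc finger genes with the prefix ZNF 1 of 518 overlapped (0.193%), ZNF521. None of 392 olfactory receptor genes, 66 protocadherin genes, 40 HOX genes or 55 genes with the prefix RPL did. Small families would hold few or no stretch genes in any case. The longest span, 1926 kb at chrX:120640181-122566403, crossed the CT47 array of cancer-testis genes, none with a member inside, with 9 regions and a gap of 909 kb between neighbouring members. Its density, 4.67 regions per Mb, was the lowest of all stretches, and how well reads can be placed in this array was not analysed. The densest stretch held 8 regions in 39.4 kb within URB1, a ribosome assembly gene, on chromosome 21.

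The stretches were unevenly spread over chromosomes. Chromosome 2 had the most, 40 with 431 regions. As a share of kept regions, chromosome 18 led with 9.69% in stretches, followed by chromosome 20 with 7.58% and chromosome 15 with 6.63%. Chromosomes 22, 7, 19 and 9 had the lowest shares, from 0.868% to 1.43%. Chromosome 18 also had a high share of LNCaP-only regions, 53.5%, and chromosome 19 the lowest, 23.0%. The order was not the same in both, since chromosomes 15 and 20 had 46.2% and 46.3% and chromosome 14 had 47.5% with 2.62% in stretches. Copy number of these chromosomes was not measured, and its part in the result was not tested.

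**Figure D4:**
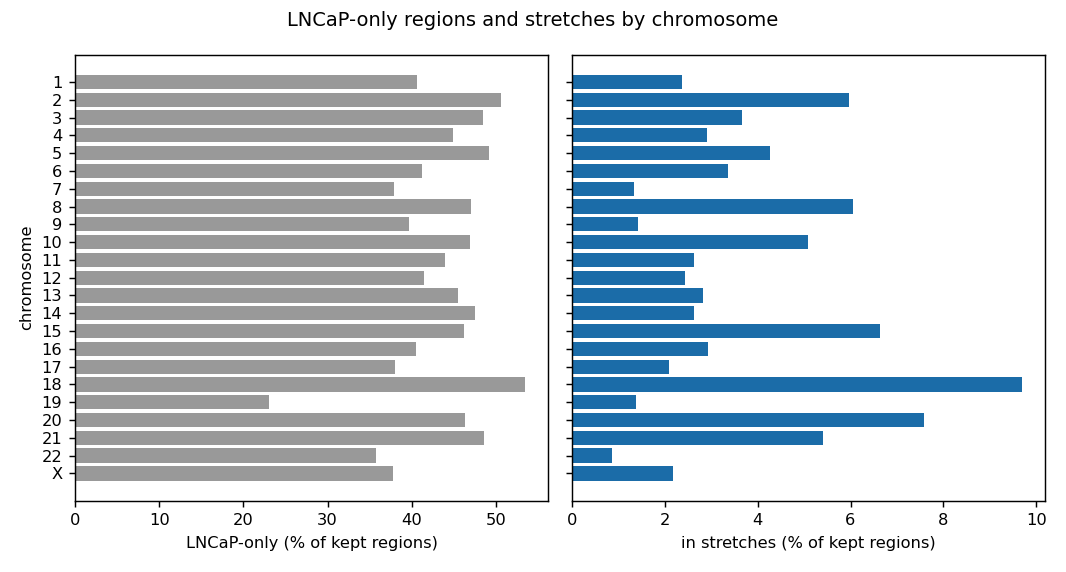
LNCaP-only regions (left) and regions in stretches (right), each as a percentage of kept regions, for chromosomes 1 to 22 and X. Chromosome 18 had 53.5% and 9.69%, and chromosome 19 had 23.0% and 1.38%.

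The loci held under other settings to different degrees. A window of 100 or 500 bp per side kept 87.5% and 91.6% of members in a stretch. Breaking a stretch at any summit of either resistant library kept 61.7% in 216 stretches. Taking scores of at least 10 kept 18.8%, and ordering all merged regions, those of a single library included, kept 5.95%. Over the 17 settings run, 2 stretches had a member left in each. These were the last PTPRM stretch and one of 17 regions overlapping PRMT8 and CRACR2A at chr12:3496911-3803196, which had 27 and 20 LNCaP summits against 1 and 0.

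**Figure D5:**
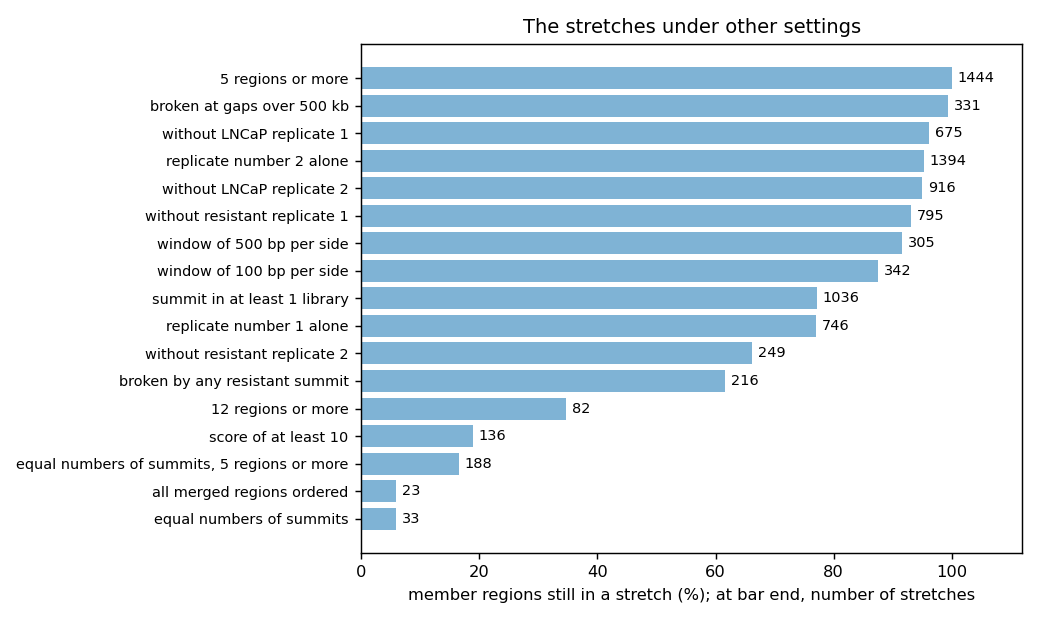
Share of the 3445 members that were still in a stretch (horizontal axis, percent) under each of 17 other settings, with the number of stretches at the bar end. Shares ran from 5.86% with equal numbers of summits to 100% with runs of 5 regions, which keep every member by construction.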

How the data were processed

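ATAC-seq summits of 4 libraries were used, 2 of LNCaP and 2 of LNCaP-resistance. The authors deposited a list of summits per library on hg38, each with a score that is the −log10 of a p-value or q-value as MACS2 writes it. The submitters' processing notes name Bowtie2 2.2.5, SAMtools 1.6 and MACS2 2.2.6. No read counts were used, so depth is unknown and each list's length stands in for it. Groups came from the sample titles.

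Summits on chromosomes 1 to 22, X and Y were widened, merged and ordered in Python 3.11.15 with pandas 2.3.3 and numpy 2.4.6. The code was tested on simulated lists. Genes and sequences came from RefSeq tables of GRCh38.p14, whose primary chromosomes have hg38 coordinates, and the promoter table covered 15843 of 20037 protein-coding genes. It held no promoters of chromosome 8, which carried 26 stretches with 273 members. All promoter counts and motif shares thus leave that chromosome out. Protein-coding genes were named when they overlapped 1 of the 10 stretches with the most regions, were among the 5 genes with the most members, belonged to a gene list and overlapped a stretch (at most 4 a list), or were loci of the study. Others, such as the keratins and the genes at the strongest regions, were named after their values were seen. The members and lists were chosen with earlier results of these data known. The alternatives changed the window, score, number of summits, smallest run, gap, region order and libraries used. No genome sequence was used here, so motifs and GC content of the regions, and how well reads can be placed in them, were not analysed. Results that need certain withheld genes are not reported here.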

Additional observations from a re-analysis of the deposited data

How the results depend on the processing

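The 333 stretches, 3445 members and 387 protein-coding genes stayed within 1.5 times with windows of 100 or 500 bp per side and with stretches broken at gaps over 500 kb. Scores of at least 10 gave 136 stretches, 1382 members and 240 genes. Equal numbers of summits gave 33, 326 and 35, and with runs of 5, chosen after seeing the data, 188, 1183 and 243. Presence in at least 1 library gave 1036, 10973 and 890. Runs of 5 or more gave 1444, 9717 and 1304, and runs of 12 or more 82, 1193 and 103. Ordering all merged regions gave 23, 205 and 18, and breaking at any resistant summit 216, 2124 and 214. Leaving out 1 library gave 249 to 916 stretches, 2482 to 9812 members and 260 to 942 genes. Without LNCaP replicate 1 there were 675 stretches, without LNCaP replicate 2 there were 916, and without resistant replicate 1 there were 795 stretches. Without resistant replicate 2 there were 249. Libraries paired by replicate number gave 746 stretches, 7765 members and 696 genes for number 1 and 1394, 15654 and 1589 for number 2. The equal-number setting uses fewer and higher-scoring summits by construction, and the cause of the changes was not tested. Depth could not be equalised without read counts.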
